A study of Mus musculus with 2 samples.

Results

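The genes described here are 10 genes of iron storage, iron transport and haem breakdown, of the 19537 genes listed for 2 single-cell libraries of mouse microglia. The rule that chose them lists them by name and uses no measured value: the ferritin chains Fth1 and Ftl1, the iron exporter Slc40a1, the uptake genes Tfrc, Steap3 and Slc11a2, the phagosomal transporter Slc11a1, the haem oxygenase Hmox1, and the regulators Ireb2 and Ncoa4. The study asked how microglia that lack PARK7/DJ-1 respond to inflammation, and compared PARK7/DJ-1 KO mice (gene-trap allele Park7 Gt(XE726)Byg, backcrossed to C57BL/6NCrl) with wildtype (WT) littermates. By the labels, all mice were 3 to 4 months old and received 1 intraperitoneal injection of bacterial lipopolysaccharide (LPS, 4 µg per g of body weight), and CD11b+CD45int brain cells were sorted 24 h later for Drop-seq, which counts the 3' ends of single mRNA molecules with unique molecular identifiers (UMIs). Each genotype is 1 library that pools cells of 2 mice, 1 female and 1 male, called KO and WT here and KO LPS and WT LPS in the plots. The gene trap acts in every cell of the mouse from conception, so the KO is not specific to microglia, and no library without LPS was analysed here.

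Cells were barcodes with at least 500 UMIs and at least 100 genes, which gave 320 cells in KO and 1427 in WT. They held a median of 963.5 and 1065 UMIs, and 381305 and 1989011 UMIs in all. With 1 library per genotype there is no test of a genotype difference, and genotype cannot be told apart from library. Intervals are exact 95% intervals that cover counting error only, not differences between mice. No cell barcode occurred in both libraries, and all 12 microglial markers were present in both (35843 and 31336 CPM, that is, UMIs per 1000000 UMIs of the library's cells). Park7, the trapped gene, was at 1 UMI in KO and at 323 UMIs in WT (2.62 and 162 CPM). A list of 14 inflammatory genes stood at 684 CPM in KO and at 12142 in WT, and Saa3, an acute-phase gene of that list, had 0 and 8367 UMIs. A list of 10 homeostatic microglial genes, with the purine receptor P2ry12 among them, stood at 27980 and 13211 CPM. Both lists were chosen with earlier results of these data known, so their differences describe the libraries and test nothing. All 14 inflammatory genes were lower in KO, 13 of them at least 2-fold, and Il1a had a ratio of 0.647 (0.366 to 1.07). KO thus held little mRNA of these 14 genes beside WT, although both are labelled as sampled 24 h after LPS. The LPS label of KO could not be checked without an untreated library. Genotype, response to LPS and the label itself cannot be told apart here, and every ratio of KO to WT below carries this doubt.

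Ferritin is a shell of heavy (FTH1) and light (FTL1) chains that stores iron inside the cell. Transferrin receptor (TFRC) brings iron in, the reductase STEAP3 and the transporter DMT1 (Slc11a2) release it from the endosome, and ferroportin (Slc40a1) is the only known exporter of iron from mammalian cells. When iron is scarce, iron regulatory proteins, of which IRP2 is the product of Ireb2, bind a hairpin called the iron responsive element: at the 5' end of ferritin and ferroportin mRNA they block translation, and at the 3' end of transferrin receptor mRNA they slow its decay. Macrophages are known to hold iron back in inflammation, with more ferritin and less ferroportin.

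The hairpin is shown because the ferritin genes and Slc40a1 carry the same element in the same part of the mRNA, and lay on opposite sides of no difference between the libraries. The transcripts of the 10 genes (GENCODE vM39, genome GRCm39) were searched for a bulged C, 5 bases, the loop CAGTGN, and 5 bases that pair with the first 5, G-T pairs allowed. There were 7 matches, in 4 of the 10 genes. The pattern allows no unpaired base among the 5 pairs, so a gene without a match may still carry an element. Each line gives 30 bases of the transcript strand, with the bulged C and the loop in capitals.
Fth1, 5' UTR, chr19:9960096-9960125, plus strand: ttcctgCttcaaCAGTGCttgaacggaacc
Ftl1, 5' UTR, chr7:45109202-45109231, minus strand: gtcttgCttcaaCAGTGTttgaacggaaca
Slc40a1, 5' UTR, chr1:45964624-45964653, minus strand: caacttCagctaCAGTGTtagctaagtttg
Tfrc, 3' UTR, chr16:32450037-32450066, plus strand: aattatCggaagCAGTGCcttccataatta
Tfrc, 3' UTR, chr16:32450416-32450445, plus strand: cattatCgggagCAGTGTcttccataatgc
Tfrc, 3' UTR, chr16:32450481-32450510, plus strand: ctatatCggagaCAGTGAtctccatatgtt
Tfrc, 3' UTR, chr16:32450528-32450557, plus strand: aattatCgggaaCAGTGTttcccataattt
Of 21593 protein-coding genes searched by 1 transcript each, 0.111% held a match in the 5' UTR and 0.574% in the 3' UTR. The Fth1 and Ftl1 elements share the 5 bases on each side of the loop and differ in its last base and in bases below the bulged C. A match is a description of the sequence, and UMI counts do not measure the translation that the element is known to control.

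The KO library held less ferritin mRNA and more ferroportin mRNA than the WT library. Fth1 was 5.44-fold lower and Slc40a1 was 12-fold higher in KO. A call needed 20 UMIs in the libraries together, which 9 of the 10 genes reached, and 6 of the 9 were lower and 3 higher in KO. At least 2-fold lower were 4 (Fth1, Ftl1, Slc11a2 and Hmox1), where 15.3% of all 9085 genes with 20 UMIs lay at least 2-fold lower. At least 2-fold higher were 2 (Slc40a1 and Ncoa4), beside 13.5% of all genes. The calls of the scarce genes depended on the cells and settings used. With cells thinned to 500 UMIs the log2 ratio of Ftl1 was -0.55 and that of Hmox1 -0.53, and in Xist cells, which are counted below, that of Ftl1 was -0.69, all short of 2-fold. Of 17 alternatives, the call, which needs both 20 UMIs and 2-fold, was lost in 8 for Ftl1, in 5 for Hmox1, in 4 for Ncoa4 and in 2 for Slc11a2. It was lost in 1 for Slc40a1, which had 12 UMIs in Y-linked cells, and in none for Fth1. The median log2 ratio of the 9 was -0.54, and that of all 9085 genes was 0.03. With so few genes these shares describe the list and single out nothing about it.

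**Figure D1:**
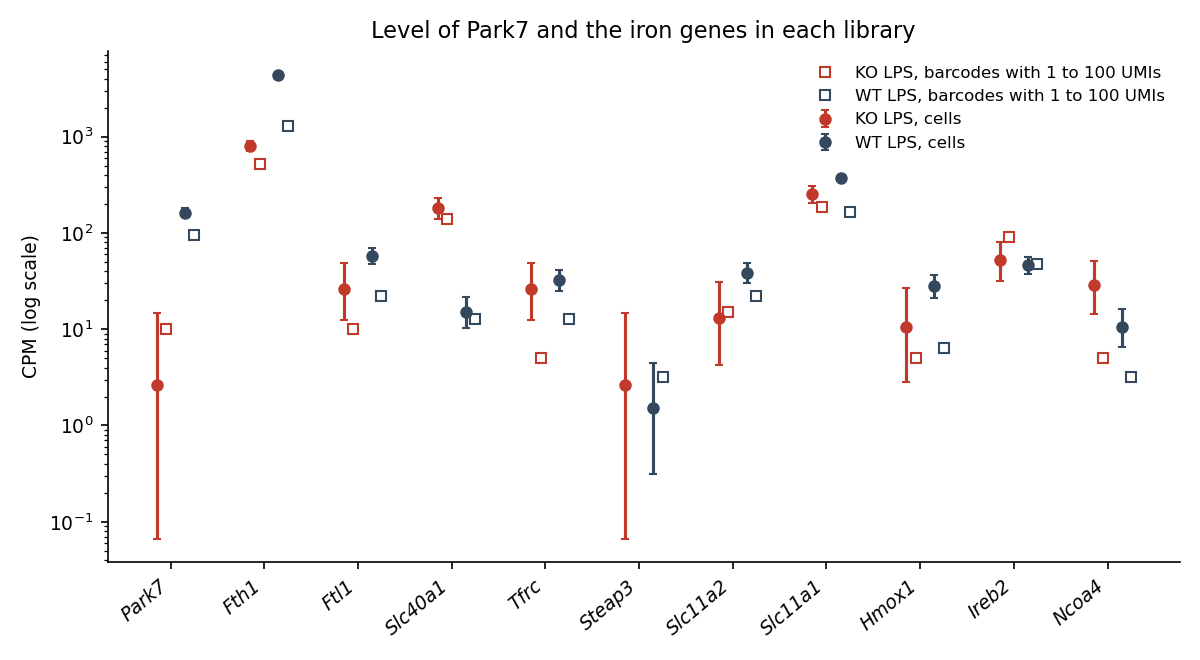
Level of Park7 and of each iron gene in the 2 libraries, in CPM on a log axis. Filled circles are cells with exact 95% Poisson intervals, and open squares are barcodes with 1 to 100 UMIs, without interval (Steap3 in KO is at 0 there and is not drawn). Fth1 stands at 805 in KO and 4381 in WT, and Slc40a1 at 181 and 15.1, with the squares close to the circles for Slc40a1.

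Fth1 (chr19:9957911-9962462, plus strand), the heavy ferritin chain with the ferroxidase activity that takes up iron, was the most abundant of the 10 in both libraries. It had 307 UMIs in KO, or 805 CPM (718 to 900), and 8713 UMIs in WT, or 4381 CPM (4289 to 4474). Among all genes it ranked at position 117 in KO and at position 12 in WT. The level was 5.44-fold lower in KO (4.85 to 6.12), and 2.95% of the 9085 genes had a lower log2 ratio. A cell of WT held up to 124 Fth1 UMIs, and a cell of KO up to 8. No single cell set the level, since the 3 cells with most Fth1 held 6.84% of its UMIs in KO and 3.48% in WT.

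Fth1 was found in 52.5% of KO cells and in 85.6% of WT cells. At equal depth, with every cell thinned to 500 UMIs and no cell left out, the shares were 29.7% (24.7 to 35.0) and 73.9%. Barcodes with 1 to 100 UMIs, which hold mostly free RNA, give the background: droplets of 500 UMIs drawn from their pooled profile would show Fth1 in 22.8% of cases in KO and 47.4% in WT. Both cell shares lay above their background. In CPM, Fth1 was 1.55-fold higher in cells than in these barcodes in KO (1.24 to 1.96) and 3.42-fold higher in WT (3.09 to 3.78). The free RNA differed in the same direction as the cells, at 518 and 1283 CPM, a ratio of 0.404 against 0.184 in cells. At 500 UMIs a KO cell held 0.372 Fth1 UMIs on average and a WT cell 2.01, with a highest value of 5 and 14.

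**Figure D2:**
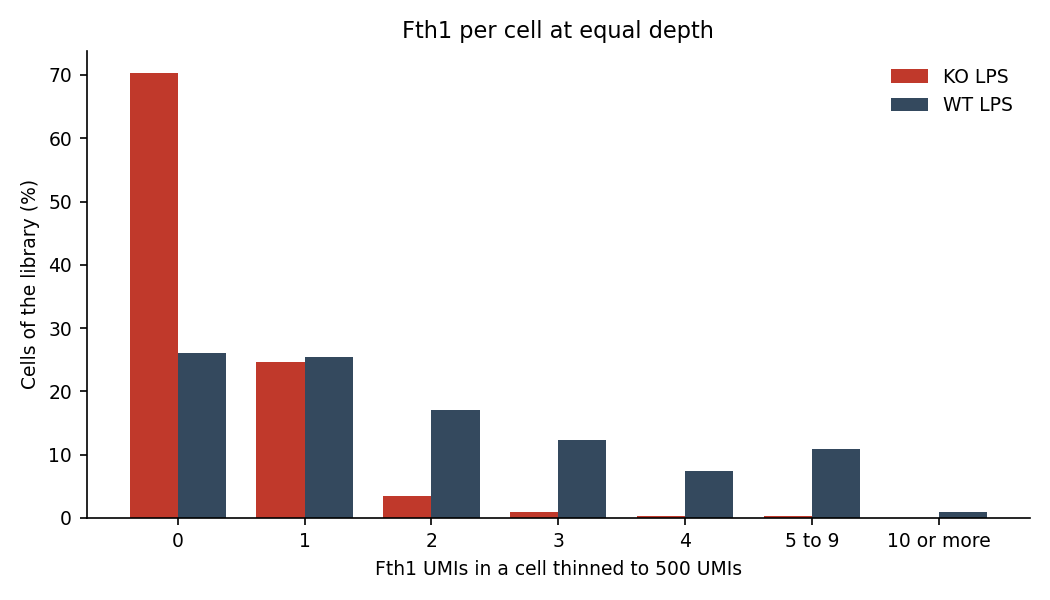
Percent of the cells of each library (vertical axis) by their number of Fth1 UMIs after thinning to 500 UMIs (horizontal axis). No Fth1 UMI was drawn in 70.3% of the 320 KO cells and in 26.1% of the 1427 WT cells, and 10.9% of WT cells held 5 to 9 against 0.312% of KO cells.

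Ftl1 (chr7:45107367-45109308, minus strand), the light chain that helps iron form its mineral core, had far fewer UMIs than Fth1. It had 10 UMIs in KO, in 10 cells, and 115 in WT, in 106 cells. These are 26.2 (12.6 to 48.2) and 57.8 (47.7 to 69.4) CPM, 2.20-fold lower in KO (1.16 to 4.72). At 500 UMIs, 1.88% of KO cells and 2.80% of WT cells held a UMI, next to background shares of 0.502% and 1.10%. Ftl1 is a gene with many near-identical copies in the mouse genome, and reads that match several places are often dropped or split, so its level and the 30.7 and 75.8 Fth1 UMIs for each Ftl1 UMI are uncertain. No other symbol that begins with Fth or Ftl, apart from Fth1 and Ftl1, was listed. The chains together stood at 831 (742 to 928) and 4438 (4346 to 4532) CPM, 5.34-fold lower in KO (4.77 to 5.99).

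Slc40a1 (chr1:45947211-45965683, minus strand), which encodes ferroportin, lay on the other side. It had 69 UMIs in KO, or 181 CPM (141 to 229), and 30 UMIs in WT, or 15.1 CPM (10.2 to 21.5). The level was 12-fold higher in KO (7.71 to 19.1), and 99.8% of the 9085 genes had a lower log2 ratio. Without thinning, 15.9% of KO cells and 1.96% of WT cells held a UMI. At 500 UMIs the shares were 7.19% (4.61 to 10.6) and 0.981%, next to background shares of 6.80% and 0.631% in the free RNA. Such a share takes a droplet to hold free RNA alone, so it is the highest background and not the expected one. The Slc40a1 level in cells was 1.28 times that of the free RNA in KO (0.817 to 2.07) and 1.19 times in WT (0.420 to 4.65). The free RNA itself held 141 CPM in KO and 12.7 in WT, an 11.1-fold difference (3.89 to 43.6). A level near that of the free RNA does not mark a gene as background, since the microglial genes P2ry12 (3837 CPM in KO cells and 4972 in KO free RNA) and Cx3cr1 (6601 and 7035) did not stand above it either. Free RNA was also subtracted, at the largest share that left none of its 50 highest genes below 0. This share was 4.94% of the UMIs in KO cells and 16.7% in WT cells. Of the Slc40a1 UMIs, 66.3 of the 69 in KO and 25.8 of the 30 in WT remained, with a log2 ratio of 3.54 in place of 3.57. Such shares leave most UMIs of a gene near its free RNA level in place, so the source of the Slc40a1 UMIs was not tested.

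Other cell types are known to make ferroportin, and their markers were counted beside it, although a CD11b+CD45int sort should remove endothelial, choroid plexus, astrocyte, oligodendrocyte and erythroid cells. Endothelial markers stood at 89.2 CPM in KO and 19.1 in WT, with 2 of 7 and none of 7 at 0. Among them Flt1 had 14 and 3 UMIs, 24.3-fold higher in KO (6.79 to 132), Pecam1 had 16 and 25 UMIs, 3.34-fold higher (1.67 to 6.50), and Cldn5 had 1 UMI in each library (2.62 and 0.503 CPM). Choroid plexus markers stood at 1899 and 11.6 CPM, with 2 of 6 at 0 in each, and 710 of their 724 KO UMIs were of 1 gene, Ttr. Folr1 and Kcnj13 each had 6 UMIs in KO and 1 in WT, 31.3-fold higher in KO (3.80 to 1440), and Kl had 2 and 0. Ttr also differed in the free RNA, at 694 CPM in KO and 95.0 in WT, as Slc40a1 did. The 2 KO cells with 3 or more choroid plexus UMIs held 1 of the 69 Slc40a1 UMIs. Border macrophage markers stood at 462 and 445 CPM, and 6 of the 8 were at 0 in KO and none in WT. The other two were Stab1, at 399 CPM in each library, and Mrc1, at 62.9 and 10.6 CPM, 5.96-fold higher in KO (3.18 to 11.3). The 12 KO cells with 3 or more border macrophage UMIs held 4 of the 69 Slc40a1 UMIs, and the 67 such WT cells held 6 of the 30. Astrocyte markers stood at 399 and 190 CPM, with 1 of 7 at 0 in each library, and their 6 KO cells held 1 of the 69. Oligodendrocyte markers stood at 102 and 73.9 CPM, with 2 and 1 of the 6 listed at 0, and the 3 WT cells with 3 or more of their UMIs held 3 of the 30 Slc40a1 UMIs. Monocyte markers stood at 26.2 and 15.6 CPM, with 1 of the 4 listed at 0 in each, and Ccr2 among them was 2.78-fold higher in KO (1.02 to 6.99). The 1 KO cell with 3 or more monocyte UMIs held 1 of the 69. Erythroid markers, which would mark blood, were at 0 UMIs in KO and at 5 in WT, with 6 of the 6 listed and 2 of the 6 at 0. When every cell with 3 or more UMIs of any other cell type's markers was left out, 298 and 1339 cells remained and the log2 ratio of Slc40a1 was 3.74 in place of 3.57. The part of other cell types in the free RNA was not tested.

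Storage and export were also set against each other within each library. KO held 4.59 ferritin UMIs for each Slc40a1 UMI (3.53 to 6.05), and WT held 294 (206 to 436). This ratio does not depend on library size and was 64.1-fold lower in KO (40.4 to 103), which is the product of the ferritin and Slc40a1 differences given above and no further observation. For the 3 uptake genes, KO held 0.232 UMIs for each Slc40a1 UMI (0.126 to 0.404) and WT held 4.83 (3.24 to 7.42). Both balances share the same Slc40a1 counts.

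**Figure D3:**
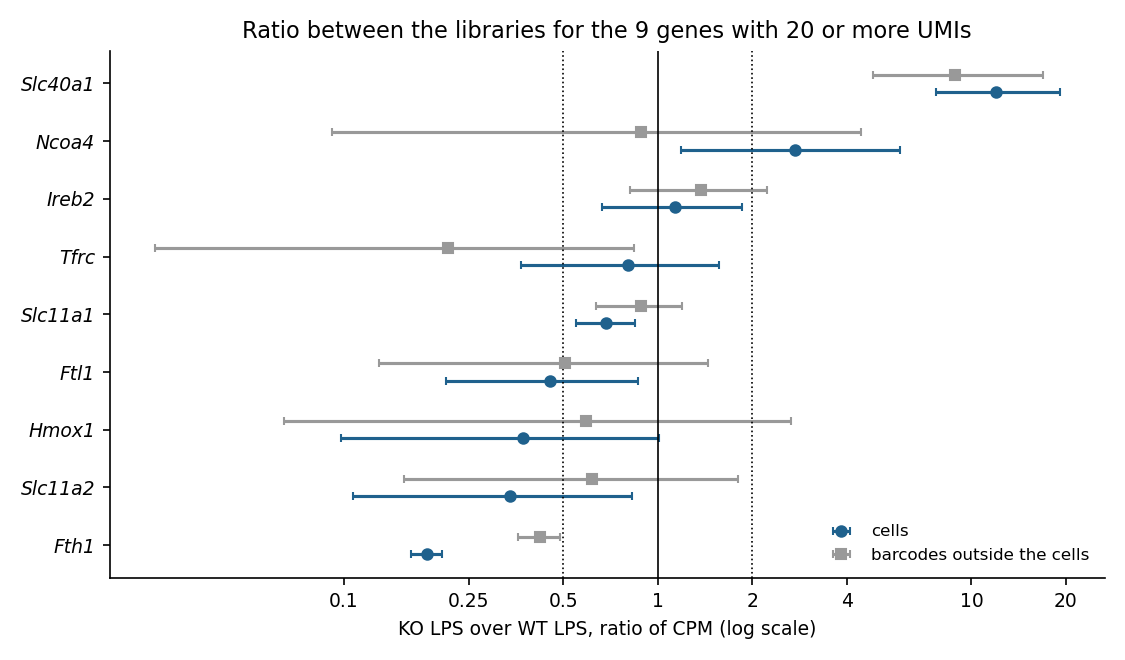
Ratio of CPM, KO over WT (log axis), for the 9 genes with at least 20 UMIs in cells, with exact 95% intervals. Blue circles are cells and grey squares are all barcodes outside the cells, the solid line marks no difference and the dotted lines 2-fold. Slc40a1 lies at 12 in cells and 8.86 outside them, and Fth1 at 0.184 and 0.420.

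The uptake genes were scarce in both libraries. Tfrc (chr16:32427556-32451612, plus strand), the transferrin receptor, had 10 UMIs in KO and 65 in WT, or 26.2 (12.6 to 48.2) and 32.7 (25.2 to 41.7) CPM. The ratio in cells was 0.803 (0.368 to 1.57), an interval that includes no difference, and 60% of the KO UMIs lay in 3 cells. In the barcodes outside the cells the Tfrc ratio was 0.215 (0.0250 to 0.839), from 2 UMIs in KO and 33 in WT. Slc11a2 (chr15:100285776-100322953, minus strand), the endosomal transporter DMT1, had 5 and 77 UMIs, or 13.1 (4.26 to 30.6) and 38.7 (30.6 to 48.4) CPM, 2.95-fold lower in KO (1.21 to 9.35). Steap3 (chr1:120118487-120200435, minus strand), the endosomal ferrireductase, had 1 and 3 UMIs and was under the minimum for a ratio. The 3 genes together stood at 42.0 (24.0 to 68.1) and 72.9 (61.5 to 85.8) CPM, 1.74-fold lower in KO (1.03 to 3.12). At 500 UMIs, Slc11a2 was found in 0.312% of KO cells against a background of 0.752%, and in 1.89% of WT cells against 1.10%. The KO share rests on 1 cell, and the level in KO cells was 0.869 times that of the free RNA (0.169 to 5.59), which decides nothing.

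Slc11a1 (chr1:74414303-74425448, plus strand), the transporter NRAMP1 that moves metal ions out of the phagosome of macrophages, ranked behind Fth1 in both libraries. It had 97 UMIs in KO, or 254 CPM (206 to 310), and 738 in WT, or 371 CPM (345 to 399). The level was 1.46-fold lower in KO (1.18 to 1.82), a smaller difference than that of Fth1. At 500 UMIs, 10.3% of KO cells and 17.0% of WT cells held a UMI, next to background shares of 8.89% and 7.91%. The level in cells was 1.37 times that of the free RNA in KO (0.927 to 2.05) and 2.25 times in WT (1.70 to 3.05).

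Hmox1 (chr8:75820241-75827217, plus strand), the inducible haem oxygenase that breaks haem down and sets its iron free, had 4 UMIs in KO and 56 in WT. These are 10.5 (2.86 to 26.9) and 28.2 (21.3 to 36.6) CPM, a ratio of 0.373 (0.0981 to 1.01) whose interval includes no difference. In the cells with Xist UMIs and no UMI of 4 Y-linked genes, Hmox1 had 4 and 13 UMIs and a ratio of 0.956 (0.227 to 3.09). At 500 UMIs it was found in 0.938% of KO cells and 1.54% of WT cells, next to background shares of 0.251% and 0.316%.

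Ireb2 (chr9:54770970-54820011, plus strand), which encodes IRP2, had 20 UMIs in KO and 92 in WT, or 52.5 (32.0 to 81.0) and 46.3 (37.3 to 56.7) CPM. The ratio was 1.13 (0.662 to 1.85), which leaves room for a change of up to 1.85-fold upward or 1.51-fold downward. Its level in cells was not above that of the free RNA, at 0.579 times in KO (0.291 to 1.16) and 0.974 times in WT (0.561 to 1.81). Ncoa4 (chr14:31881822-31902234, plus strand), the cargo receptor that carries ferritin to the lysosome so that its iron is released, had 11 UMIs in KO and 21 in WT. These are 28.8 (14.4 to 51.6) and 10.6 (6.54 to 16.1) CPM, 2.73-fold higher in KO (1.19 to 5.93). The 11 KO UMIs lay in 11 cells. In the barcodes outside the cells the Ncoa4 ratio was 0.886 (0.0916 to 4.44).

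The count of 1 UMI per captured molecule does not grow with mRNA length, so the levels of different genes are given in order, although the place of Ftl1 is uncertain for its copies. In KO, Fth1 alone of the 10 had an interval of cells over free RNA that lay above 1. In WT, Fth1 was followed by Slc11a1 (371 CPM), Ftl1 (57.8), Ireb2 (46.3), Slc11a2 (38.7), Tfrc (32.7), Hmox1 (28.2), Slc40a1 (15.1), Ncoa4 (10.6) and Steap3 (1.51). From Ftl1 down to Ncoa4, each interval overlapped that of its neighbour. In KO, Fth1 was followed by Slc11a1 (254) and Slc40a1 (181), whose intervals overlapped, then by Ireb2 (52.5), Ncoa4 (28.8), Ftl1 and Tfrc (26.2 each), Slc11a2 (13.1), Hmox1 (10.5) and Steap3 (2.62). From Ireb2 down, each KO gene had 20 or fewer UMIs and an interval that overlapped that of its neighbour.

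The difference in Fth1 was present at every depth of the cells. In cells from 500 to under 750 UMIs, Fth1 stood at 768 CPM in KO and 3554 in WT, and in cells of 2500 UMIs and more at 880 and 4902. Within KO the levels over 5 depth classes lay between 635 and 949 with overlapping intervals, and within WT they lay between 3554 and 4902. Slc40a1 lay between 132 and 236 CPM in KO and between 9.45 and 21.9 in WT, so its classes did not overlap between the libraries either. The class of 2500 UMIs and more held 19 KO cells.

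Cells of the pooled female and male mice could be told apart in part by Xist and by the Y-linked genes Ddx3y, Eif2s3y, Uty and Kdm5d. Xist alone marked 200 KO and 565 WT cells, Y-linked genes alone marked 12 and 195, and 108 and 667 cells held neither or both. In Xist cells Fth1 stood at 779 CPM in KO and 4450 in WT, 5.71-fold lower (4.96 to 6.61). In Y-linked cells it stood at 623 and 4134, 6.64-fold lower (3.48 to 14.5), from 9 UMIs in KO. Slc40a1 stood at 211 and 16.1 in Xist cells, 13.1-fold higher (7.09 to 26.2). Its level in Y-linked cells was 346 and 22.8, 15.2-fold higher (3.80 to 55.6), from 5 UMIs in KO and 7 in WT. Both genes thus differed in the same direction in cells of either sex, which here means 1 mouse of each sex and genotype.

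Fth1 was higher in WT cells with more inflammatory mRNA. WT cells at 500 UMIs were grouped by their UMIs of the 14 inflammatory genes, which hold none of the iron genes; these groups were chosen after the data were seen. The 114 WT cells with none stood at 2088 Fth1 CPM (1729 to 2498). The 402 cells with 1 or 2 stood at 3139, the 468 cells with 3 to 5 at 3855, the 250 cells with 6 to 10 at 4584, and the 193 cells with 11 or more at 6725 (6218 to 7263). The level was higher at each step, and the intervals of neighbouring groups did not overlap. Depth before thinning moved with these groups, with medians of 883, 984, 1066, 1222.5 and 1219 UMIs per cell, and its part in the order was not tested. Slc11a1 showed no such order, at 368, 393, 329, 408 and 477 CPM over the same groups.

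KO held few cells at the inflammatory end: 240 of its 320 cells had no UMI of these genes at 500 UMIs, 76 had 1 or 2, and 4 had more. Fth1 stood at 750 CPM (603 to 922) in the 240 and at 711 (468 to 1034) in the 76. Among cells with no inflammatory UMI the KO level was thus 0.359 times that of WT (0.270 to 0.476), a smaller difference than the 0.184 over all cells. In these cells Slc40a1 had 23 UMIs in KO and none in WT, with an exact interval of the ratio that begins at 2.73. A cell without such a UMI may still carry inflammatory mRNA, and the part of inflammatory state in the difference between the libraries was not tested further.

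**Figure D4:**
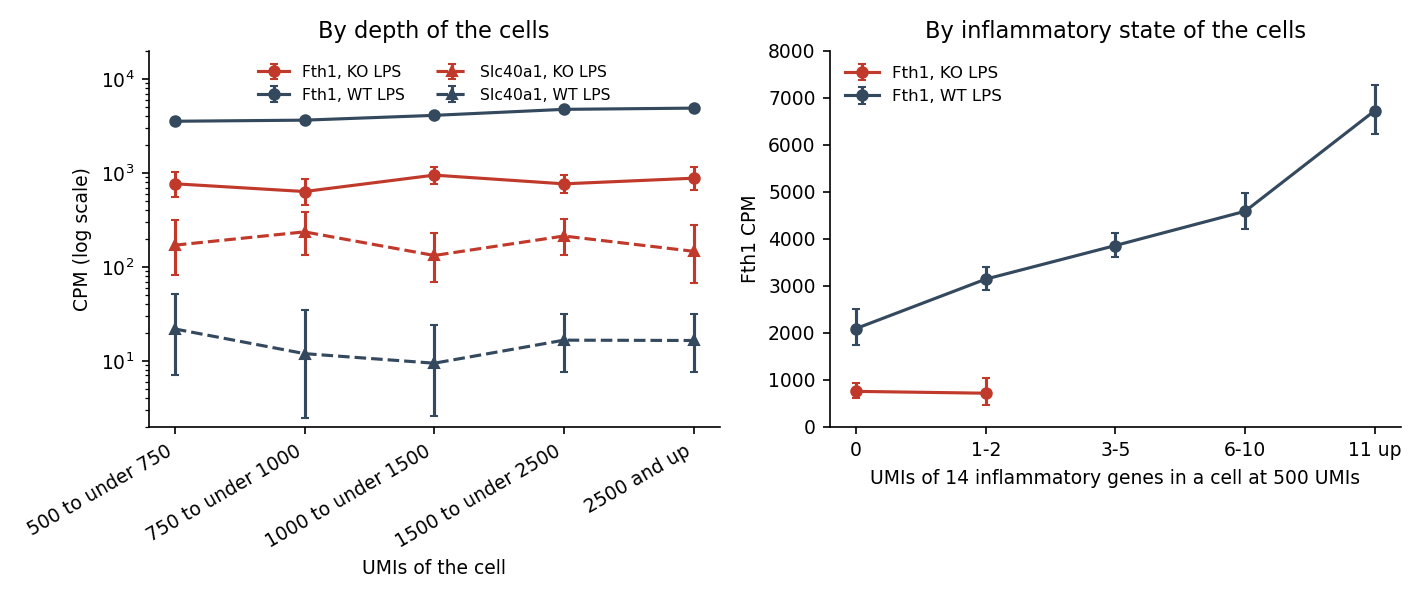
Left, Fth1 (circles) and Slc40a1 (triangles) in CPM on a log axis by the UMI count of the cells. Right, Fth1 in CPM on a linear axis by the cells' UMIs of 14 inflammatory genes at 500 UMIs, for groups of at least 20 cells. Bars are exact 95% Poisson intervals: Fth1 runs from 2088 to 6725 in WT and stays at 750 and 711 in KO.

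Across cells at 500 UMIs, only Fth1 reached the 0.2 UMIs per cell set for a correlation with other genes. Its Spearman correlation with the summed inflammatory genes was 0.29 over the 1427 WT cells and 0.01 over the 320 KO cells, and with 10 homeostatic genes it was 0.17 and 0.02. These cells share a library and a fixed depth, and the KO values rest on a mean of 0.372 Fth1 UMIs. The genes most like Fth1 in WT, of 66 compared, were Actb (0.32), B2m (0.28), Cst3 (0.28), Tmsb4x (0.24) and Lrrc58 (0.24). In KO, of 78 compared, they were Actb (0.19), Ctss (0.18), Cst3 (0.17), Lrrc58 (0.13) and Selplg (0.11). In WT cells with a UMI of Saa3, an acute-phase gene, Fth1 was 1.37-fold higher than in cells without one (1.26 to 1.47). The other iron genes had intervals that include no difference. In KO, the 23 cells with a Slc40a1 UMI held 1 Fth1 UMI and the 297 cells without one held 118, a ratio of 0.109 (0.00275 to 0.622). In WT the ratio for the same split was 1.21 (0.835 to 1.69). These splits are among several that were made, and cells are not replicates.

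The wider set comprised 75 other genes of iron and haem metabolism. Of these, 65 were listed and 56 had at least 20 UMIs: 34 were lower and 22 higher in KO, 8 at least 2-fold lower and 4 at least 2-fold higher. Their median log2 ratio was -0.23, beside 0.03 over all genes. The called shares were 14.3% and 7.14%, against 15.3% and 13.5% of all genes. The 4 lowest with at least 50 UMIs were Lcn2, Cp, Hp and Slc39a14. Lcn2, the siderophore-binding lipocalin, had no UMI in KO beside 885 in WT, with a ratio of at most 0.0218 by its exact interval. Cp, the ferroxidase ceruloplasmin that works beside ferroportin, had 3 and 494 UMIs, or 7.87 and 248 CPM. Hp, the haemoglobin scavenger haptoglobin, had none and 66, with a ratio of at most 0.300. Slc39a14, the iron importer ZIP14, had 5 and 430 UMIs, or 13.1 and 216 CPM. In the free RNA of WT, Lcn2 stood at 184 CPM, Cp at 241, Hp at 19.0 and Slc39a14 at 279. Neutrophils, which a CD45int gate should remove, also make Lcn2 and Hp, and their markers stood at 0 CPM in KO, with 7 of 7 listed at 0, and at 64.4 CPM in WT, with 4 of 7 at 0; their part in these values was not tested.

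The 4 highest with at least 50 UMIs were Maf, a transcription factor of tissue macrophages (2143 CPM in KO and 861 in WT), Herc2, a ubiquitin ligase that acts on the ferritinophagy receptor NCOA4 (608 and 273), Slc25a37, the mitochondrial iron importer mitoferrin (168 and 80.9), and Ppox of haem synthesis (36.7 and 20.6), whose ratio of 1.78 (0.897 to 3.34) was no call. The remaining gene past 2-fold was Uros of haem synthesis, with 12 and 31 UMIs and a ratio of 2.02 (0.944 to 4.04). In the free RNA of KO, Maf stood at 2008 CPM, Herc2 at 765, Slc25a37 at 166 and Ppox at 35.2. Of the 8 haem synthesis genes 3 were lower and 5 higher, and of the 12 tested genes of mitochondrial iron and iron-sulphur clusters 8 were lower and 4 higher. Of the 8 genes of cytosolic iron-sulphur assembly 6 were lower and 2 higher, where 4424 of all 9085 genes were lower, and 3 lay at least 2-fold lower, where 15.3% of all genes did. Among 7 tested regulators of ferritin and haem oxygenase genes 4 were lower and 3 higher, with Maf alone past 2-fold.

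**Figure D5:**
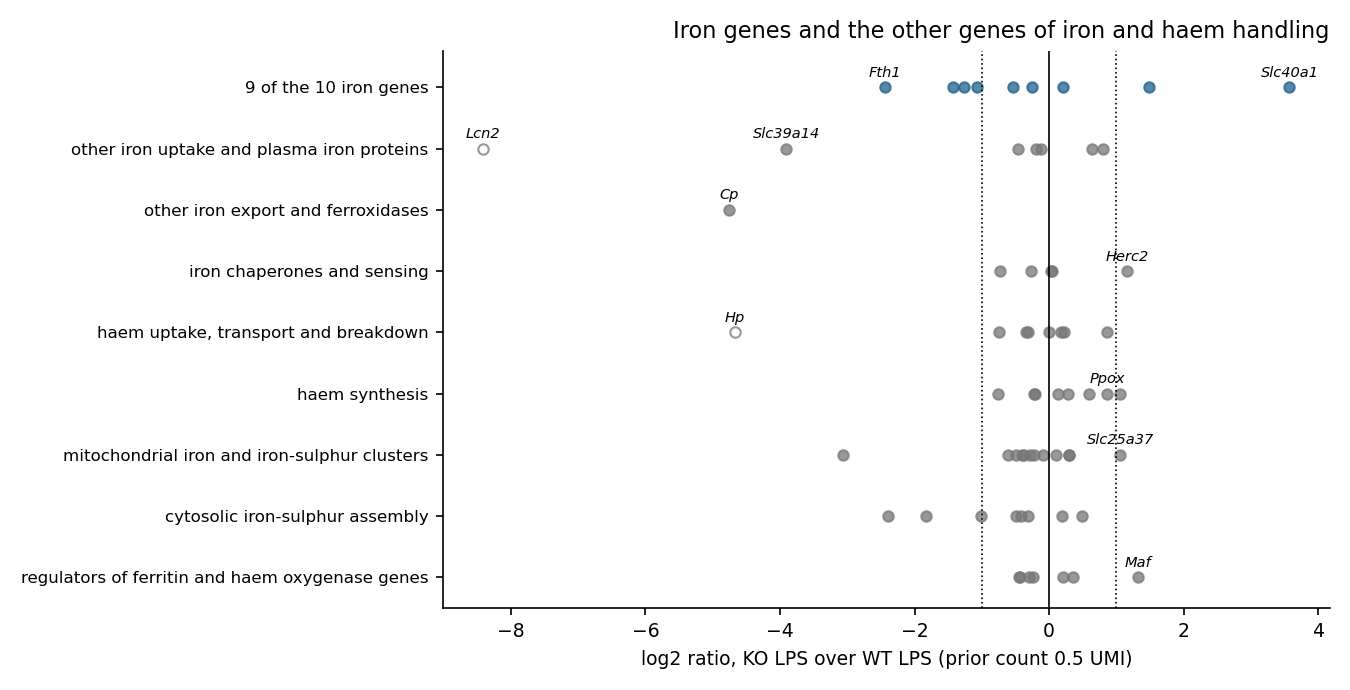
Log2 ratio of KO over WT (prior count 0.5 UMI) for 9 of the 10 iron genes (blue) and the 56 other iron and haem genes with at least 20 UMIs (grey), by group. Open circles had no UMI in KO, so their place depends on the prior count. Slc40a1 lies at 3.57 and Fth1 at -2.44, and Bola3, Slc39a14, Cp, Hp and Lcn2 lie lower than Fth1.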

How the data were processed

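The authors sorted CD11b+CD45int cells and made Drop-seq libraries; their processing notes name bcl2fastq 2.0, STAR and the builds mm9 and mm10. Which build, counting program and annotation gave the tables is not given in the sources used here. The authors deposited UMI counts per gene and barcode, 9999 barcodes per library, as whole numbers with no normalization. Genes missing from a library (5616 in KO, 3036 in WT) are given as missing values and were read as 0. No column lacked a sample.

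The 10 genes and all gene lists were chosen with earlier results of these data known. Cells were barcodes with at least 500 UMIs and 100 genes; the study called cells with DropletUtils, which was not repeated, and its filter of 100 genes alone leaves 676 KO and 3618 WT barcodes. No doublet caller was run. UMIs were summed over cells and divided by the library's total in cells (CPM, per 1000000 UMIs); intervals are exact Poisson (levels), exact conditional binomial (ratios), exact Clopper-Pearson (shares) and exact conditional odds ratio (balances). Log2 ratios used a prior count of 0.5, and a call needed 20 UMIs over both libraries and a 2-fold ratio. Cells were thinned without replacement to 500 UMIs. Background came from barcodes with 1 to 100 UMIs (9069 and 4267 barcodes, 198723 and 315748 UMIs). The ratio and interval code was tested on simulated data. Named are Park7, the 10 genes, the 4 highest and 4 lowest other iron genes with at least 50 UMIs, the 5 genes most correlated with Fth1 (at least 0.5 UMI per cell), and markers of other cell types that moved with a member. Software was Python 3.11.15, numpy 2.4.6, scipy 1.17.1 and pandas 2.3.3, and edgeR 4.0.16 for 1 alternative scaling on the counts. Sequences are from GENCODE vM39 on GRCm39, which is not the build of the files, so no coordinate was taken from the files.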

Additional observations from a re-analysis of the deposited data

Results flagged for a closer look

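Slc40a1 stood out in data that the comparison of cells does not use. In the barcodes outside the cells, 9679 in KO and 8572 in WT, it was 8.86-fold higher in KO (4.85 to 16.9), next to 12-fold in cells. No other of the 10 genes was higher there with an interval that leaves out 1. The flag looked only for higher genes. Fth1 (0.420, 0.359 to 0.489) and Tfrc (0.215, 0.0250 to 0.839) were lower there with intervals that leave out 1. These barcodes belong to the same 2 libraries as the cells, so they are no separate evidence. Groups of 1 library allow no search for samples far from the rest.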

How the results depend on the processing

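Over 17 alternatives, 3 of them chosen after the data were seen, Fth1 and summed ferritin were lower, and Slc40a1 higher, in KO in all 17, as was the lower storage-to-export balance (log2 -6.64 to -5.46). The log2 ratio of summed ferritin, -2.41, moved beyond its counting interval to -2.23 with no UMI minimum, to -2.67 in Y-linked cells and to -1.43 in cells at 500 UMIs with no inflammatory UMI. In those last cells, which hold few UMIs, the log2 ratio of Slc40a1 was 4.48, that of the summed uptake genes turned from -0.76 to 0.064, Ftl1 turned to 1.73 (3 UMIs against 0) and Slc11a2 to 0.51 (1 against 0), Ireb2 turned from 0.21 to -1.07 (6 against 6), and 148 genes were at least 2-fold lower and 244 higher, in place of 1387 and 1225, since fewer genes reach 20 UMIs. The 2-fold calls of Ftl1 and Hmox1 end with a prior count of 2 (-0.90 and -0.89), and that of Ftl1 at 1000 UMIs (-0.75). The number of genes at least 2-fold higher was 813 with cells thinned, 728 in Y-linked cells and 3889 with no filter on low counts, where the filter's absence admits genes with few UMIs. No filter and a prior count of 2 moved the median log2 ratio of all genes to 0.36 and 0.16; TMM and median-ratio scaling left it at 0.02 and 0.03. Adding ferritin copies gave no value because none is listed. Depth limits the scarce genes: 3 UMIs, the floor, are 7.87 CPM in KO and 1.51 CPM in WT, and Steap3, Hmox1, Ncoa4, Tfrc, Slc11a2 and Ftl1 rest on 11 or fewer UMIs in KO. The absence of a replicate library limits every ratio.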
